A study of Oryza sativa with 2 samples.

Results

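The transcripts described here are those of the rice (Oryza sativa) gene for ACS2, an enzyme of ethylene synthesis, and the genes for ETR3 and ERS1, receptors for ethylene. They were found on the array as every probe whose gene has the symbol or synonym ACS2, ETR3 or ERS1, with or without the prefix Os, which gave 4 probes of 3 genes among 22574 probes, where 15798 genes have a probe. ACS2 (LOC4336750) and ERS1 (LOC4333832) had 1 probe each, and ETR3 (LOC4331174) had 2, made from the cDNA clones AK111581 and AK111520. The genes were picked with their ratios on these same arrays known, so those ratios are given as a description and no test was made on them. Whole rice seedlings were exposed at 7 days old to carbon ion beams, a densely ionizing radiation from an accelerator, for 2 h 35 min, and healthy seedlings without exposure were the control. Both groups had been raised in a growth chamber in MS medium, a mineral plant culture medium. There were 2 arrays, each holding irradiated RNA in one dye and control RNA in the other, with Cy5 on the irradiated RNA in the first array and Cy3 on it in the dye-swap array. Both carry the same replicate number in the labels, so they were taken as a dye swap of 1 pair of RNA extracts, there is 1 replicate per group, and precision is limited by how few arrays there are.

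Ethylene is a gaseous plant hormone that plants make in larger amounts under wounding, flooding and pathogen attack. ACC synthases (ACS) turn S-adenosylmethionine into ACC, in most tissues the step that limits the rate, and ACC oxidases (ACO) turn ACC into ethylene. The receptors, named ETR and ERS, sit in the membrane of the endoplasmic reticulum and resemble bacterial sensor histidine kinases. They hold the pathway off when no ethylene is bound. The ERS proteins lack the receiver domain that ETR proteins carry at their end. Downstream of the receptors, the membrane protein EIN2 and transcription factors of the EIN3 and EIL family turn the response on.

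Values are log2 ratios of irradiated over control after each array was set on its own trend of ratio against spot intensity, and a ratio given without naming an array is the mean of both arrays. The deposited values were read as log10 of Cy5 over Cy3, which neither the labels nor the file states, so every direction is likely and not certain. Under the opposite reading every sign turns. That the dye-swap array has to be negated is not settled by the labels or the file either. If it is not negated, the mean of ACS2 is -0.48 and that of EREBP1, an ethylene response factor described further on, is 0.03, and neither is called. The probe names rest on a recovered numbering of the spots. With it the 5 probes of photosynthesis genes had a median spot intensity of 15376 scanner units, against 170.4 with the numbers as listed. Over 2237 pairs of probes for the same gene, log intensities correlated at only 0.21 with it, against 0.017 with the numbers as listed. A probe was called higher or lower when it was at least 2-fold so on both arrays. Of all probes 1.88% were called higher (425 probes) and 0.332% lower (75 probes). At 1.5-fold on both arrays 3.95% were higher. Of the 4 probes only that of ACS2 was called, and since the choice of members used these ratios, nothing is read from that share.

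ACS2 was the one gene of the set that was called, about 4.09-fold higher in irradiated seedlings. The spot intensities recovered from the deposited ratio on the first array were 997 scanner units for irradiated RNA against 189 for control RNA. On the dye-swap array they were 534 for irradiated RNA against 205 for control RNA. The irradiated channel was thus the brighter one on both arrays, whichever dye it carried, and the groups did not overlap. Set on the intensity trend, the log2 ratio was 1.55 on the first array and 2.51 on the dye-swap array, a mean of 2.03 with a half-difference between arrays of 0.48.

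The ACS2 ratio was also high before any normalization. The deposited log10 ratio was 0.72 on the first array and -0.42 on the dye-swap array. Of the 10 probes of the ethylene pathway list this was the only one with a deposited value above 0 on the first array and below 0 on the dye-swap array, which was true of 4.1% of all probes. With no normalization at all the mean ratio of ACS2 was 1.89, and with each array centred on its median it was 2.23 on the first array and 2.05 on the dye-swap array. The probe lay in the eighth decile by intensity, where 3.19% of probes were called higher. Among the 1000 probes nearest to it in intensity the robust SD was 0.32 for the mean of the arrays and 0.29 for their half-difference. Its mean ranked 160 among all probes, with 0.704% of probes higher. The 24 spots around it on the array had a median ratio of 0.07 and ran from -0.87 to 0.85, all below ACS2. Because ACS2 was picked with its ratio known, its rank and its place among other probes are a description and no support for it.

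**Figure D1:**
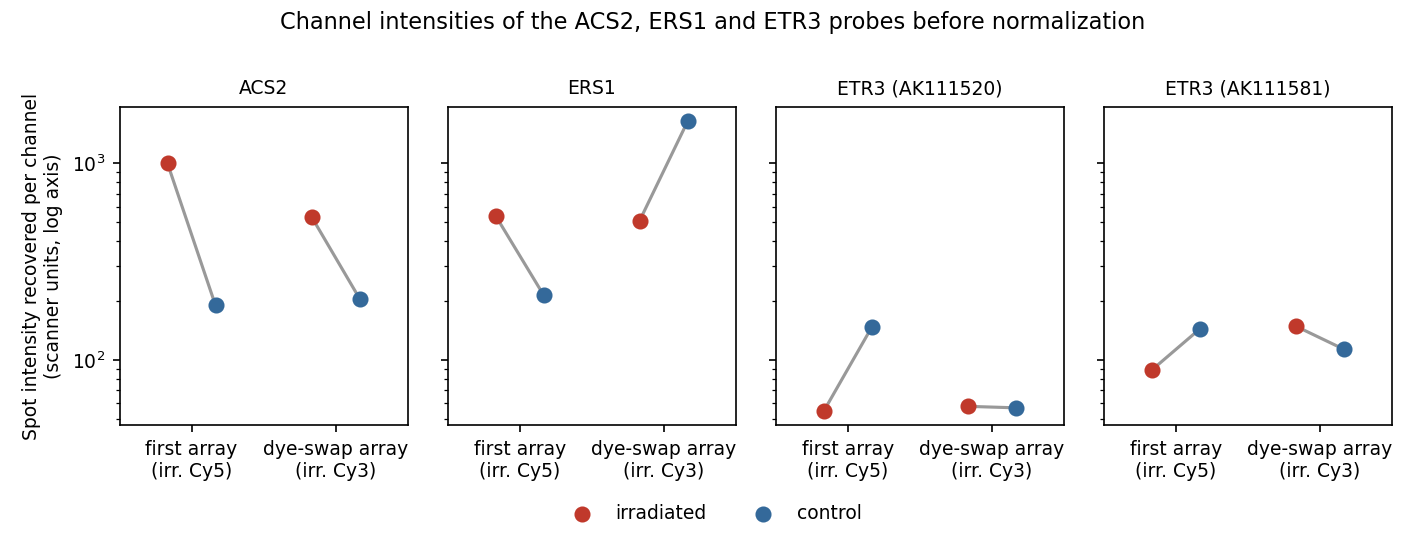
Spot intensities of irradiated RNA (red, left) and control RNA (blue, right) recovered from the deposited ratios, in scanner units on a log axis, for the probes of ACS2, ERS1 and ETR3 on each array, before normalization. For ACS2 the irradiated channel is the higher one on both arrays (997 against 189 and 534 against 205), while for ERS1 the Cy5 channel is the higher one on both.

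ERS1, a receptor without a receiver domain, followed the dye and not the sample. Its spot on the first array gave 539 scanner units for irradiated RNA against 213 for control RNA. On the dye-swap array it gave 511 for irradiated RNA against 1635 for control RNA. The Cy5 channel was the brighter one both times, as the intensity trend has it for spots of this brightness, and the order of irradiated and control turned with the dye. After the trend was taken off, the log2 ratio was 0.64 on the first array and 0.05 on the dye-swap array, a mean of 0.34, or 1.27-fold. That mean is little larger than the half-difference between arrays of 0.30 and than the robust SD of the mean among probes of like intensity, 0.31. On the dye-swap array the ratio was close to 0, and ERS1 was not called. With median centring the mean was 0.08, from 1.17 on the first array and -1.01 on the dye-swap array.

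The ETR3 probes, for a receptor with a receiver domain, were dim and disagreed with each other. The probe from clone AK111581, in the fourth decile by intensity, read 89 scanner units for irradiated RNA against 144 for control RNA on the first array. It read 148 for irradiated RNA against 113 for control RNA on the dye-swap array. Its log2 ratio was -0.19 on the first array and 0.31 on the dye-swap array, so the arrays had opposite signs and their mean was 0.06.

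The other ETR3 probe, from clone AK111520, was in the second decile. It read 55 scanner units for irradiated RNA against 147 for control RNA on the first array, and 58 against 57 on the dye-swap array. After loess its log2 ratio was -0.65 on the first array and -0.60 on the dye-swap array, a mean of -0.63, or 1.54-fold lower, with a half-difference of only 0.03. With restored common factors it was the single ethylene probe at least 1.5-fold lower on both arrays, against 2.06% of all probes. Without them AK111520 had -0.78 on the first array and -0.25 on the dye-swap array, where it fell short of 1.5-fold. The receptor ETR2 then passed instead, with -0.84 and -0.94. Among 1000 probes with an intensity like that of AK111520 the robust SD was 0.41 for the mean of the arrays. This is smaller in size than its mean of -0.63. For their half-difference the robust SD was 0.75, which is larger. With median centring the arrays took opposite signs, -1.59 on the first array and 0.70 on the dye-swap array. The ETR3 probes differed by 0.46 on the first array and by 0.91 on the dye-swap array, as AK111581 minus AK111520. For a gene read by dim probes that disagree, these arrays do not settle whether it differed. Whether local background had been taken off is not given in the sources used here.

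**Figure D2:**
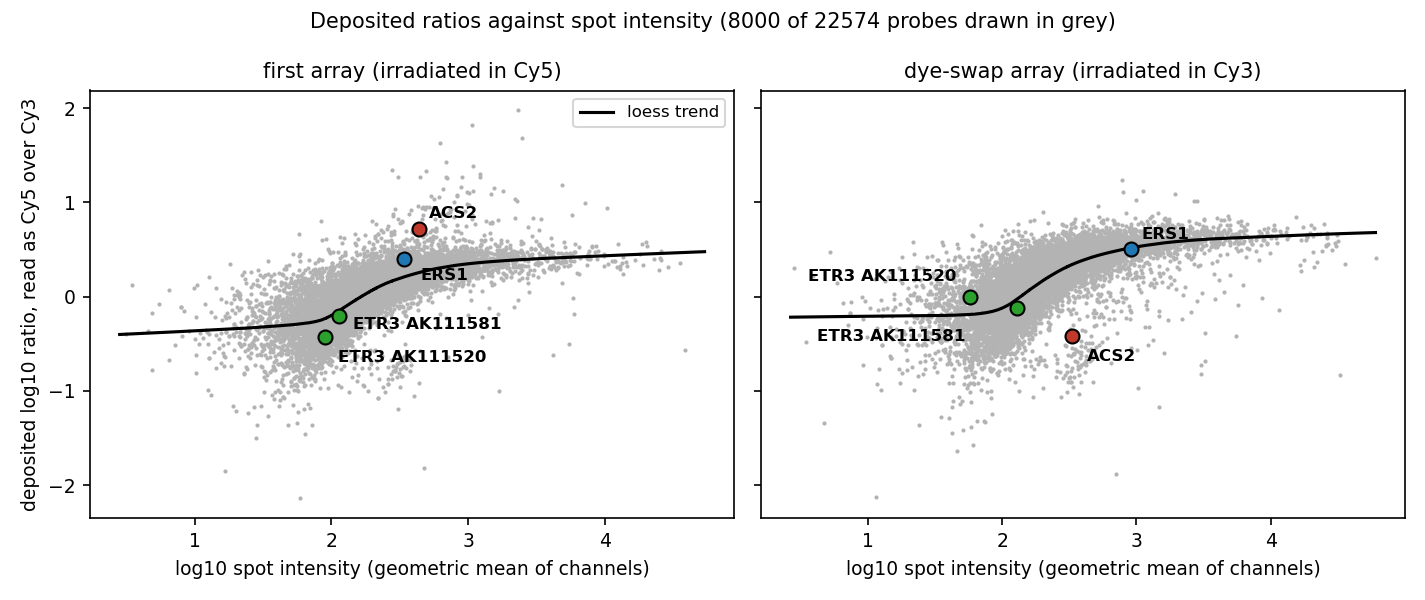
Deposited log10 ratio, read as Cy5 over Cy3, against log10 spot intensity on the first array (left) and the dye-swap array (right), with 8000 of 22574 probes in grey, the loess trend in black and the probes of ACS2, ERS1 and ETR3 marked. ACS2 lies above the trend on the first array (0.72) and below it on the dye-swap array (-0.42), the side of irradiated RNA on both, while ERS1 stays near the trend on the dye-swap array.

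The remaining receptors showed no called difference either. ETR2 (LOC4335058), which like ETR3 has a receiver domain, read 442 scanner units for irradiated RNA against 441 for control RNA on the first array, and 230 against 592 on the dye-swap array. Its log2 ratio was -0.85 on the first array and -0.14 on the dye-swap array, a mean of -0.50. The dye-swap value rests on a restored common factor of 2 in the recovered intensities. Without restored factors ETR2 had -0.84 on the first array and -0.94 on the dye-swap array, a mean of -0.89, and was not called. ETR4 (LOC4342865), of the same type, stood at 0.25 and 0.08 on these arrays, a mean of 0.17. ERS2 (LOC4337850), the relative of ERS1, had -0.42 on the first array and -0.40 on the dye-swap array, but it was in the dimmest decile, with 17 scanner units for irradiated RNA against 48 for control RNA on the first array and 44 against 37 on the dye-swap array. Over the 6 receptor probes of 5 genes the median ratio was -0.18, with 0 called higher, 0 called lower, 3 means above 0 and 3 below. ACS2 exceeded ERS1 by 1.69 in the mean, and the ETR3 probes by 1.98 (AK111581) and 2.66 (AK111520), and it did so on each array taken alone.

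Other steps of the pathway also stayed within 2-fold. ACO1 (LOC4347225), which carries out the last step of synthesis, was in the brightest decile. It read 4172 scanner units for irradiated RNA against 1131 for control RNA on the first array, and 1637 against 6348 on the dye-swap array. The brighter channel was again Cy5 on both. Its log2 ratio was 0.59 on the first array and 0.07 on the dye-swap array, a mean of 0.33, close to that of ERS1 on each array.

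EIN2 (LOC4342431), the membrane protein that passes the signal on, had -0.19 on the first array and -0.46 on the dye-swap array, a mean of -0.32. EIL1 (LOC107276358), a transcription factor at the end of the pathway, had 0.26 on the first array and -0.68 on the dye-swap array, a mean of -0.21. The arrays thus had opposite signs for EIL1. The gene table also lists ACS1, ACS5 and a neighbouring copy named EIL1b, which were not analysed here.

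**Figure D3:**
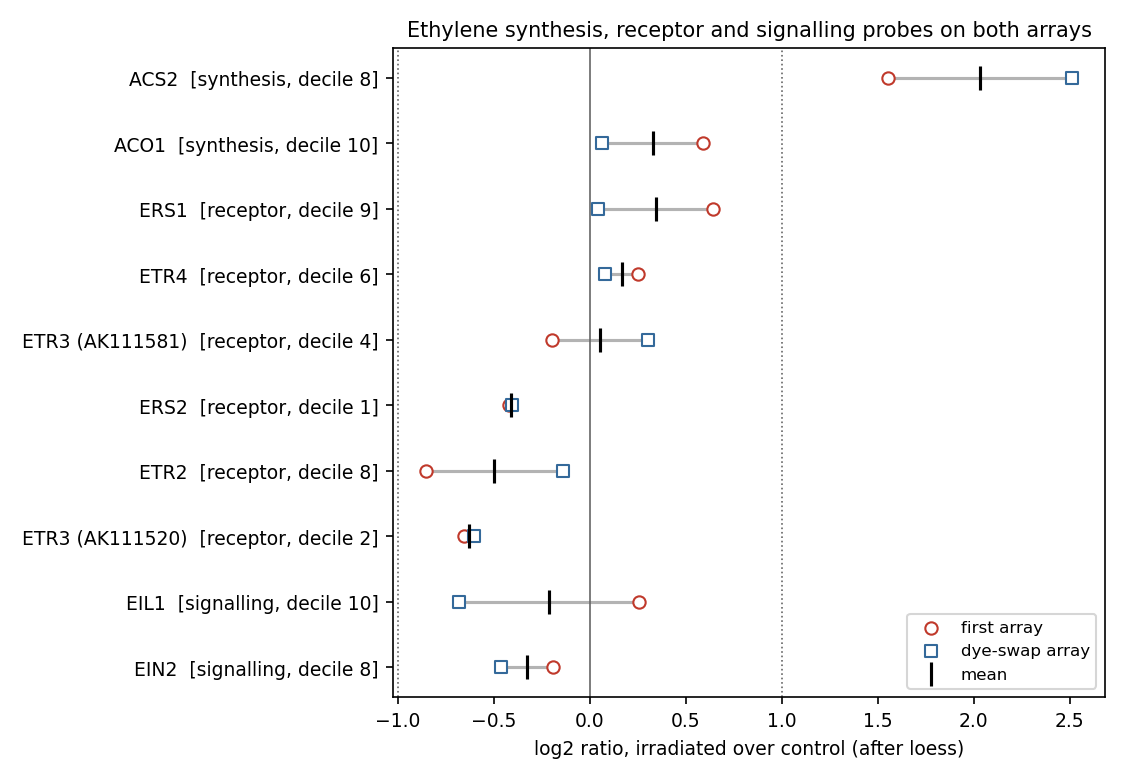
Log2 ratio of irradiated over control after loess for the 10 probes of ethylene synthesis, receptor and signalling genes, with the first array as open circles, the dye-swap array as open squares and their mean as a bar; dotted lines mark 2-fold. Only ACS2 lies past 2-fold on both arrays, and the other 9 probes have means between -0.63 and 0.34.

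Taken as a list, these 10 probes of 9 genes had 1 probe called higher and 0 called lower, and a median ratio of -0.08, against a median of -0.004 over all probes. Means were above 0 for 5 of them and below 0 for 5. After loess the arrays had the same sign for 8 of the 10, against 45.5% of all probes. With median centring only ACS2 and ETR2 kept the same sign on both arrays. The list also holds the members picked with these values known, so nothing is read from that share. After loess and without ACS2, ETR3 and ERS1 the 6 others had a median of -0.27. They ran from -0.50 for ETR2 to 0.33 for ACO1, with 0 called in either direction. For comparison, 2.61% of the 2411 probes with a gene name were called higher.

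**Figure D4:**
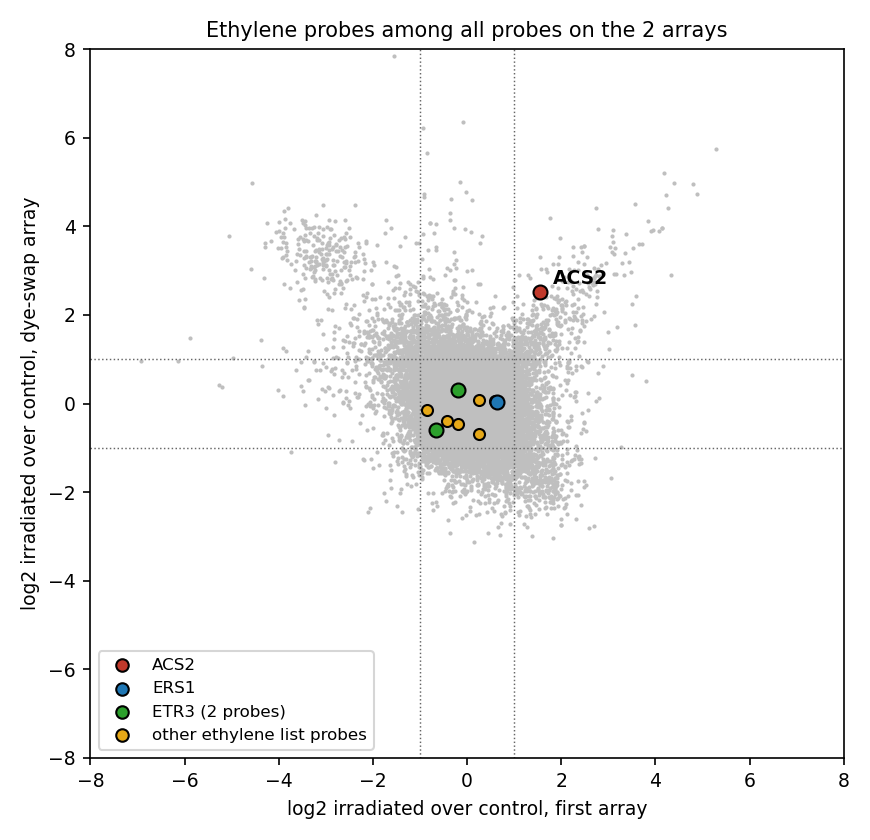
Log2 ratio of irradiated over control on the first array (x axis) against the dye-swap array (y axis) for all 22574 probes (grey), with ACS2, ERS1, both ETR3 probes and the other ethylene list probes marked and dotted lines at 2-fold. ACS2 lies in the upper right with 1.55 and 2.51, and the other 9 ethylene probes lie inside the lines, with ACO1 hidden by the point of ERS1.

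Ethylene synthesis draws on the methionine cycle, which supplies S-adenosylmethionine and recovers the sulphur group that ACC synthase releases. Of its 8 probes for 6 genes 0 were called, against 1.88% higher and 0.332% lower over all probes, and their median was 0.15. The S-adenosylmethionine synthetases, which make the substrate of ACS2, were both bright, where SAMS2 (LOC4326996) had 0.32 on the first array and 0.41 on the dye-swap array and SAMS (LOC4337733) had 0.29 and 0.37. The arrays lay within 0.1 log2 units of each other for both after loess. With median centring they took opposite signs, with 1.63 on the first array and -1.10 on the dye-swap array for SAMS2 and 1.49 and -1.11 for SAMS, and the means were 0.26 and 0.19. With the surrounding spots subtracted the mean of SAMS2 was 0.14.

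Among the recycling enzymes after loess, the acireductone dioxygenase ARD4 (LOC4348647) had -0.50 on the first array and -0.57 on the dye-swap array. With median centring the arrays took opposite signs for ARD4, 0.21 on the first array and -1.57 on the dye-swap array. LOC4348646 had probes with means of 0.70 and 0.23, and the gene table gives it the names both of the acireductone dioxygenase ARD1 and of a heat shock factor, so which transcript they read is not settled. The methylthioribose kinase MTK1 (LOC4337347) had 0.54 on the first array and -1.78 on the dye-swap array from a dim probe, and the isomerase IDI2 (LOC4350083) had probe means of -0.01 and 0.08.

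Ethylene response factors (ERF) are transcription factors of a family that acts in ethylene and in drought and cold responses. Of 8 probes for 8 genes 1 was called higher and 0 lower, with a median of 0.28. Over all probes 1.88% were called higher and 0.332% lower, and with 8 probes nothing is read from the share. EREBP1 (LOC4330935), named for binding ethylene-responsive promoter elements, read 1260 scanner units for irradiated RNA against 215 for control RNA on the first array, and 1272 against 1571 on the dye-swap array. Before normalization the irradiated channel was the brighter one on the first array only. Its log2 ratio after loess was 1.61 on the first array and 1.56 on the dye-swap array, a mean of 1.59. The first of these rests on a restored common factor of 5 in the recovered intensities. Without restored factors the mean was 2.33, and with median centring the dye-swap array fell short of 2-fold at 0.37 and the call was lost. It was also lost with scaling added (mean 1.45) and with no normalization (mean 1.12, with -0.30 on the dye-swap array).

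The other ERF probes are mostly those of DREB factors, which act in drought and cold responses. DREB2A (ERF40, LOC4324418) had 0.55 on the first array and 0.76 on the dye-swap array, and DREB1A (ERF24, LOC4347620) had 0.51 and 0.43. With median centring the arrays took opposite signs for DREB1A, 1.17 on the first array and -0.45 on the dye-swap array. DREB2B (ERF42) had a mean of -0.20 and DREB1B (ERF31) 0.10, and without restored factors these were 0.12 and -0.04. FZP (ERF78), which shapes the rice panicle, had a mean of 0.71 from a dim probe with a restored factor of 22 on the first array. With median centring the arrays took opposite signs for FZP, -0.58 on the first array and 1.61 on the dye-swap array. The arrays had opposite signs for DREB1G (ERF25), with -1.02 on the first array and 1.02 on the dye-swap array, and for DREB2C (ERF44), with -1.42 and 1.05.

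**Figure D5:**
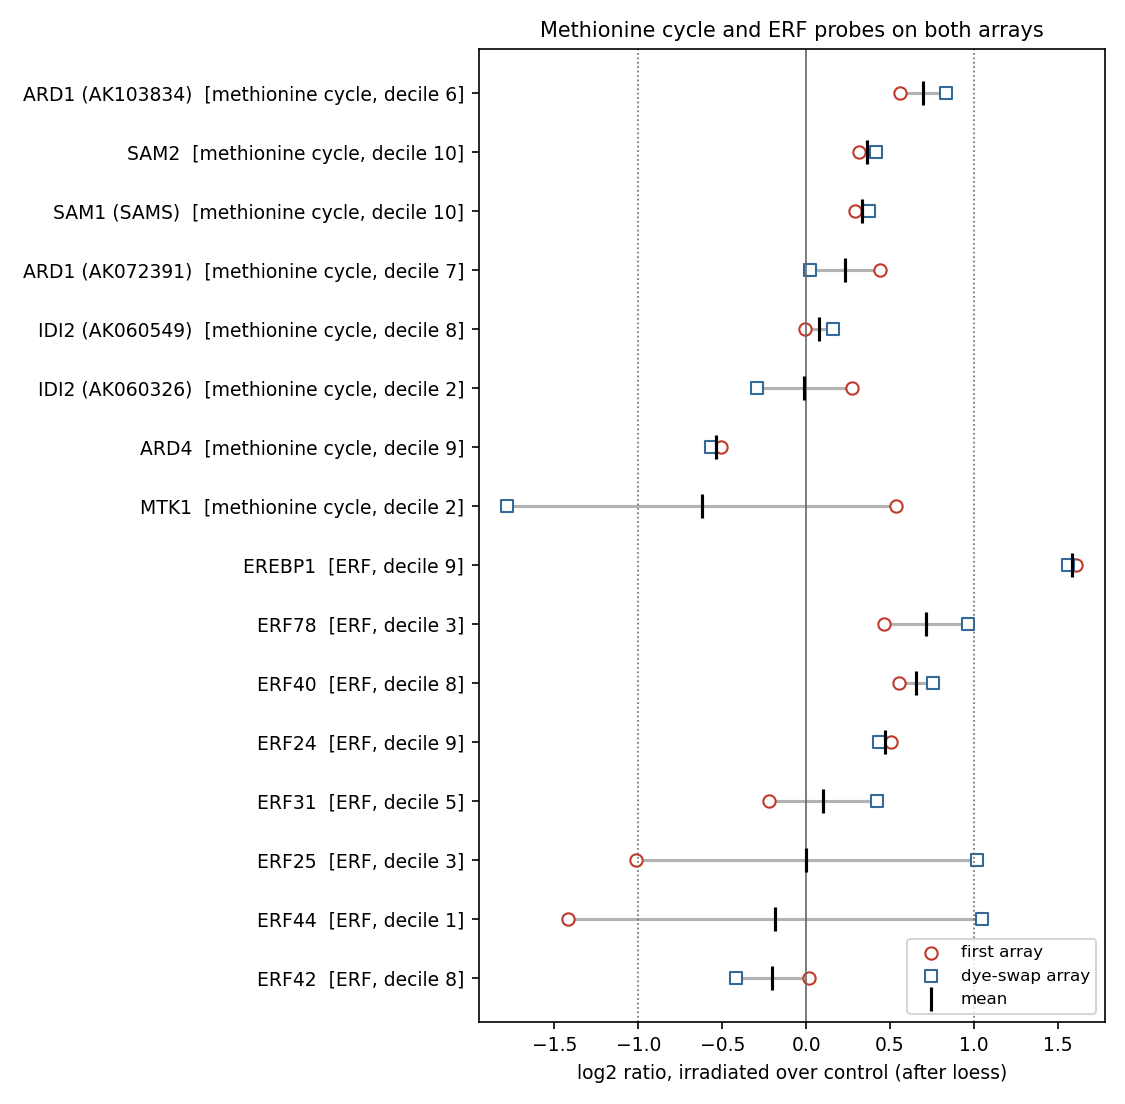
Log2 ratio of irradiated over control after loess for 8 methionine cycle probes and 8 ERF probes, with the first array as open circles, the dye-swap array as open squares, their mean as a bar and dotted lines at 2-fold; the label gives the decile by intensity. EREBP1 is the only one past 2-fold on both arrays with the same sign, and the dim probes of MTK1, ERF25 and ERF44 show the widest gaps between arrays.

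All probes were split by intensity into 3 equal classes. The named genes whose pair of ratios over the 2 arrays lay nearest to each member were then found within its class. For ACS2, out of 1015 probes, they were the phosphate transporter PHT1-8 with 1.90 on the first array and 2.39 on the dye-swap array at a distance of 0.37 log2 units, the sulphydryl oxidase QSOX1 with 1.20 and 2.26 at 0.44, and the NAC transcription factor NAC45 with 1.96 and 2.34, also at 0.44. The probes of these 3 genes lay in decile 10 by intensity, brighter than ACS2 in decile 8. A second, dimmer probe of PHT1-8 disagreed, with 0.68 on the first array and -0.75 on the dye-swap array. For ERS1 the nearest was ACO1 at a distance of 0.06, followed by the homeobox gene HOX12 at 0.07 and the cellulose synthase CESA6 at 0.08. For ETR3, out of 655 probes, they were OsC3H22, the ascorbate peroxidase APX2 and the chaperone CLPB2 near AK111581, within 0.04, and the expansins EXPA1 and EXPA16 and the germin-like GER3 near AK111520, within 0.08. The distances for ERS1 and ETR3 lie below the robust SD of the mean among probes of like intensity. It was 0.31 for ERS1, 0.47 for AK111581 and 0.41 for AK111520, so nothing is read from which genes came nearest.

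Whole seedlings hold shoots and roots, and fewer cells of a type cannot be told apart from less RNA per cell. Of the 5 photosynthesis probes, markers of green shoot tissue, 0 were called, all lay in the brightest 2 deciles, and their means ran from -0.37 to 0.16 with a median of -0.11. The arrays had the same sign for only 1 of these 5, against 45.5% of all probes, so means near 0 do not show that shoot content was unchanged. The 34 probes of the root transport list, which includes the PIP and TIP aquaporins, had a median of -0.13 and means from -1.24 to 2.14. Of them 1 was called higher and 1 lower, against 1.88% and 0.332% of all probes. The arrays had the same sign for 16 of the 34, and 12 lay in the dimmer 5 deciles. The part of tissue makeup in the ACS2 ratio was not tested.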

How the data were processed

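The deposited table gives, for each of the arrays, 22575 log10 ratios between its channels, with 1 missing. This unit was worked out from the values; the series' design text names a GenePix scanner and GeneSpring for normalization, but column medians were 0.051 and 0.20 (log10) and values ran with intensity. For each value the simplest fraction within the printed decimals gave whole-number channel intensities, exact up to a common factor. That factor, at most 59, was restored as the likeliest from both arrays jointly. Loess (statsmodels 0.14.6, span 0.3, 3 robustness iterations) of ratio on this intensity was taken off each array, the dye-swap array was negated, and values were taken to log2. The turned arrays correlated across 22574 probes at -0.25, but at 0.62 and 0.45 in deciles 9 and 10 by intensity and at -0.22 in decile 8, where the ACS2 probe lies. Turning rests on those brightest deciles.

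Rows were tied to genes through the recovered grid numbering, which was taken as given and only compared here with the numbers as listed. 17839 probes had 1 gene, all matched by gene number to RefSeq assembly ASM3414082v1, used for names only, since no build is given for the array. The full names in the plan were not in these tables, so lists used symbols and synonyms. Named genes are all member and list probes, and for each member the 3 nearest patterns. Members and lists were chosen with earlier results of these data known. The steps were also run on simulated data. Their noise was capped below the robust SD of the half-difference in the 3 dimmest deciles (0.96, 0.70 and 0.62), and their arrays were made as a dye swap. That run therefore cannot speak for the dim probes or for the turning. With 1 replicate per group no p-value was computed. Alternatives covered centring, scaling, loess settings, each array, fold, reading of the ratio and numbering. No array and no probe other than the one with the missing value was left out.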

Additional observations from a re-analysis of the deposited data

How the results depend on the processing

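ACS2 was called higher under median centring (mean 2.14), with scaling as well (2.15), without restored common factors (2.03), with a wider loess span (2.03), and, chosen after the data were seen, with no normalization (1.89) and with the surrounding spots subtracted (1.99). On the first array alone ACS2 had 1.55 and on the dye-swap array alone 2.51. Its being past 2-fold on each follows from the call itself, which requires both arrays. It turned to -2.03 under Cy3 over Cy5 and to -0.48 with the dye-swap array not turned, and stood at 0.34 with the probe numbers as listed. EREBP1 turned to -1.59 under Cy3 over Cy5 and to -0.52 with the numbers as listed, and was not called with the dye-swap array not turned (0.03), with median centring (1.37), with scaling as well (1.45) or with no normalization (1.12). ETR3 (AK111520) moved by more than the SD of its values on the arrays, to -0.45 with median centring, -0.53 with scaling as well, -0.51 without restored factors, 0.63 under Cy3 over Cy5, -0.026 unturned, -0.047 as listed, -0.70 without normalization and -0.77 with surrounding spots subtracted. ERS1 moved to -0.34 under Cy3 over Cy5, -0.10 as listed and -0.17 without normalization. ETR3 (AK111581) was never called, and its mean ran from -0.25 with the dye-swap array not turned to 0.10 with median centring, except on single arrays (-0.19 and 0.31).

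The ethylene list kept 1 probe higher and 0 lower except for 0 and 1 under Cy3 over Cy5, 0 and 0 unturned, as listed and at 3-fold, and 1 and 1 at 1.5-fold. Its median of -0.08 moved to 0.032 on the first array, 0.077 under Cy3 over Cy5, 0.041 unturned, -0.37 without normalization, -0.19 with surrounding spots subtracted and 0.17 among the brighter 5 deciles. The 425 probes higher and 75 lower became 257 and 27 with median centring, 251 and 28 with scaling, 1830 and 1587 on the first array, 2196 and 1766 on the dye-swap array, 75 and 425 under Cy3 over Cy5, 475 and 680 unturned, 137 and 54 without normalization, 892 and 465 at 1.5-fold, 185 and 6 at 3-fold, 697 and 279 by the mean and 373 and 49 among the brighter 5 deciles. Low spot intensity limits ETR3 and ERS2. Where a value changed with centring or loess, the cause was not tested. No paired analysis was possible because both arrays hold the same pair of extracts.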
